A study of Mus musculus with 6 samples.

Results

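The transcripts examined here encode the Wnt ligands, the Frizzled receptors that bind them, the secreted antagonists that hold them back, and 4 genes that report on or feed back on the pathway (Axin2, Lef1, Lgr5 and Rnf43). Members were taken by gene symbol, with earlier results of these data known: every row named Wnt, Fzd, Sfrp or Dkk with a number, plus Frzb, Wif1 and those 4 genes. This gave 43 of the 24422 genes in the count tables, namely 19 ligands, 10 receptors, 10 antagonists and 4 target and feedback genes. Changes were tested for the 35 members with at least 10 counts in 3 or more of the 6 libraries. The libraries were made from poly-A RNA of whole mouse kidney (C57BL/6) at postnatal day 60. There were 3 control kidneys, labelled wild type, and 3 kidneys labelled TfR1KO;KspCre with the genotype Tfr1f/f;KspCre, and mice of both groups ate an iron-sufficient diet of 220 ppm iron. In the second group, called knockout below, exons of the transferrin receptor gene Tfrc are floxed. Cre is under the promoter of Ksp-cadherin, a cadherin of kidney tubule epithelium, and which cells lost the gene cannot be read from whole kidney. The methods call for male and female offspring in equal proportion, and the labels give no sex per kidney.

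Wnt proteins are lipid-modified ligands that act over short distances. In the canonical branch a Wnt bridges a Frizzled receptor and the coreceptor Lrp5 or Lrp6, the destruction complex built on Axin and Apc is inactivated, and beta-catenin enters the nucleus to act with the TCF and LEF factors. Other Wnts signal through Frizzleds without beta-catenin and orient cells within an epithelium, which is called planar cell polarity. Sfrp proteins, Frzb and Wif1 bind Wnts outside the cell, whereas Dkk1, Dkk2 and Dkk4 bind the coreceptors. In the developing kidney Wnt9b from the ureteric bud and Wnt4 in the condensing mesenchyme drive nephron formation, Wnt11 marks the bud tip, and Wnt7b from the collecting duct shapes the medulla.

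Promoters are shown for the called members for which RefSeq gave a promoter sequence, and for the members whose promoter held the TCF/LEF core, because transcription of Axin2 is a standard readout of beta-catenin activity. RefSeq promoters (build GRCm38.p6, from 250 bases before to 50 after the start of transcription) were given for 30 of the 43 members, in 37 windows. The core searched was CTTTGAT, on both strands, with no other motif. It stood in 2 of the 37 windows, 1 of Wnt11 and 1 of Wnt5b. Over all 32851 windows of this length 3.73% hold it, and 2 of 37 is too few to set apart from that share. The 250 bases before the start of Axin2 (plus strand), Wnt4 (plus strand) and Wnt7a (minus strand) are given 5′ to 3′ on the gene's strand, in lower case throughout because the core does not occur in them.
Axin2, chr11:108920099-108920348: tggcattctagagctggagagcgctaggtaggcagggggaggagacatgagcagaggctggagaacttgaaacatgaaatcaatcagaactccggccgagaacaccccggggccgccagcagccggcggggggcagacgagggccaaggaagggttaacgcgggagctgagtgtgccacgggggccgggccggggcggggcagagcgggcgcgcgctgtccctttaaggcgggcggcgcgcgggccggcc
Wnt4, chr4:137277385-137277634: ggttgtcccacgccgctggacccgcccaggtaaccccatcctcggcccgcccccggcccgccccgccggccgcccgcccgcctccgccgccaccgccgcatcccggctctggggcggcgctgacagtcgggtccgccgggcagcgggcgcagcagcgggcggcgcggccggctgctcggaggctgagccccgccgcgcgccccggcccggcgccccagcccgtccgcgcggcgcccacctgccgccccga
Wnt7a, chr6:91411354-91411603: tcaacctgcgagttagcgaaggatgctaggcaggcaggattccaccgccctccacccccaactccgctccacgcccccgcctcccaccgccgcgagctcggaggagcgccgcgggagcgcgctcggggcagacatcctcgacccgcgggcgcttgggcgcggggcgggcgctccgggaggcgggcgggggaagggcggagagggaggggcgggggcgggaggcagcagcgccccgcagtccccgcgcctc
For Wnt11 (plus strand) and Wnt5b (minus strand) the 47 bases around the core are given, with the core in capitals. In Wnt11 it lies on the opposite strand and therefore reads as its reverse complement.
Wnt11, chr7:98835041-98835087: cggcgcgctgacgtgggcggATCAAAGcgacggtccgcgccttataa
Wnt5b, chr6:119449431-119449477: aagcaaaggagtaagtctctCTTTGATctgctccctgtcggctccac
A match to 7 letters is a description of the sequence and not a binding site, and a window without it says nothing about TCF/LEF factors elsewhere at the gene. The windows of Lef1 and Rnf43 did not hold the core either.

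Total counts were between 18036845 and 21001341 in controls and between 11501053 and 19576330 in knockouts. Knockout 3 was the shallowest library and also held 2.59% of its counts in the ribosomal RNA gene Rn45s, against 0.506% to 0.745% in the other 5. Control 2 differed from the other libraries in sex-linked transcripts, with 52 counts of Xist against 10458 or more elsewhere, and 1451 counts of the Y-linked Ddx3y against at most 4. The floxed gene Tfrc (log2 fold change -0.11, SE 0.62; edgeR's quasi-likelihood test, adjusted p 0.911) gave no check of the labels: its CPM (TMM-normalised counts per 1000000 reads) was 138.3, 167.7 and 61.9 in controls and 214.3, 85.9 and 40.6 in knockouts. Its sign turned with library size alone and without control 2, knockout 2 or knockout 3. Defining transcripts of kidney (Umod, Slc34a1, Aqp2 and Nphs1) were detected in all 6 libraries, with Nphs1 the lowest at 488 to 1074 counts. The design text calls the 3 libraries of a group biological replicates.

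Wnt10a, Wnt7a and Wnt4 among the ligands, Fzd2 among the receptors, Dkk3 among the antagonists and Axin2 among the feedback genes were higher in knockout kidneys. All 6 had their 3 knockout libraries above their 3 controls. These were the 6 of 35 tested members past the threshold of 0.05 in edgeR's quasi-likelihood test after Benjamini-Hochberg adjustment over all 15208 genes tested, and 0 members were called lower. Of all genes tested, 17.0% were called in either direction, 10.5% higher and 6.56% lower, so the 17.1% of members called was near the background. By role 3 of 14 ligands (21.4%), 1 of 9 receptors (11.1%), 1 of 8 antagonists and 1 of 4 feedback genes were called. Wnt7a is counted in these shares, although it reached 10 counts only in knockouts and so could be tested only if it was higher there. Wnt5b was the single member with a lower level and an unadjusted p under 0.05 (edgeR, adjusted p 0.107). It was called lower by DESeq2's Wald test (adjusted p 0.0412) and not by limma-voom (adjusted p 0.0979).

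The 35 members had a median log2 fold change of 0.55, against 0.02 over all genes, and 24 of them lay above 0 and 11 below, where 51.5% of all genes lay above 0. For 12 members all 3 knockouts lay above the control range and for 1 all 3 lay below it, where 23.7% and 22.2% of all genes did so, or 45.9% in either direction. An unadjusted p under 0.05 was had by 16 members, and by 38.5% of all genes. Wnt16 and Wnt7a reached 10 counts only in knockouts, so they could pass the count filter only by differing. Whole kidney was measured, so more cells of a type cannot be told apart from more RNA per cell.

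Over the 6 fits that each left out 1 library, the log2 fold change ranged from 3.55 to 4.08 for Wnt10a, from 1.18 to 1.90 for Wnt4, from 1.01 to 1.72 for Fzd2, from 1.12 to 2.25 for Dkk3 and from 1.63 to 2.38 for Axin2. It ranged from 5.41 to 7.84 for Wnt7a, which could be tested only in the 3 fits without a control. With edgeR, 0 members and 0 genes overall were called without control 1, 2 or 3 or without knockout 3. A call lost in those fits was thus lost for every called gene. In them 10, 9, 12 and 10 members had an unadjusted p under 0.05. The share of all genes at that p was not taken for those fits and was 38.5% with all libraries. Without knockout 2, Wnt10a and Dkk3 were called of 32 members tested, and 0.470% of all genes. Without knockout 1 the count rose to 15 of 32 members, and 33.6% of all genes were then called. DESeq2's Wald test, the tool named by the study, called 14 of 35 members and 32.1% of all genes, whereas limma-voom called Wnt10a and Wnt7a and 13.2% of all genes. Scaling by library size alone moved the median of all genes up by 0.27 on the log2 scale and gave 12 calls among the 35 members, where 23.8% of all genes were called. Under that scaling 81.6% of all calls were higher.

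**Figure D1:**
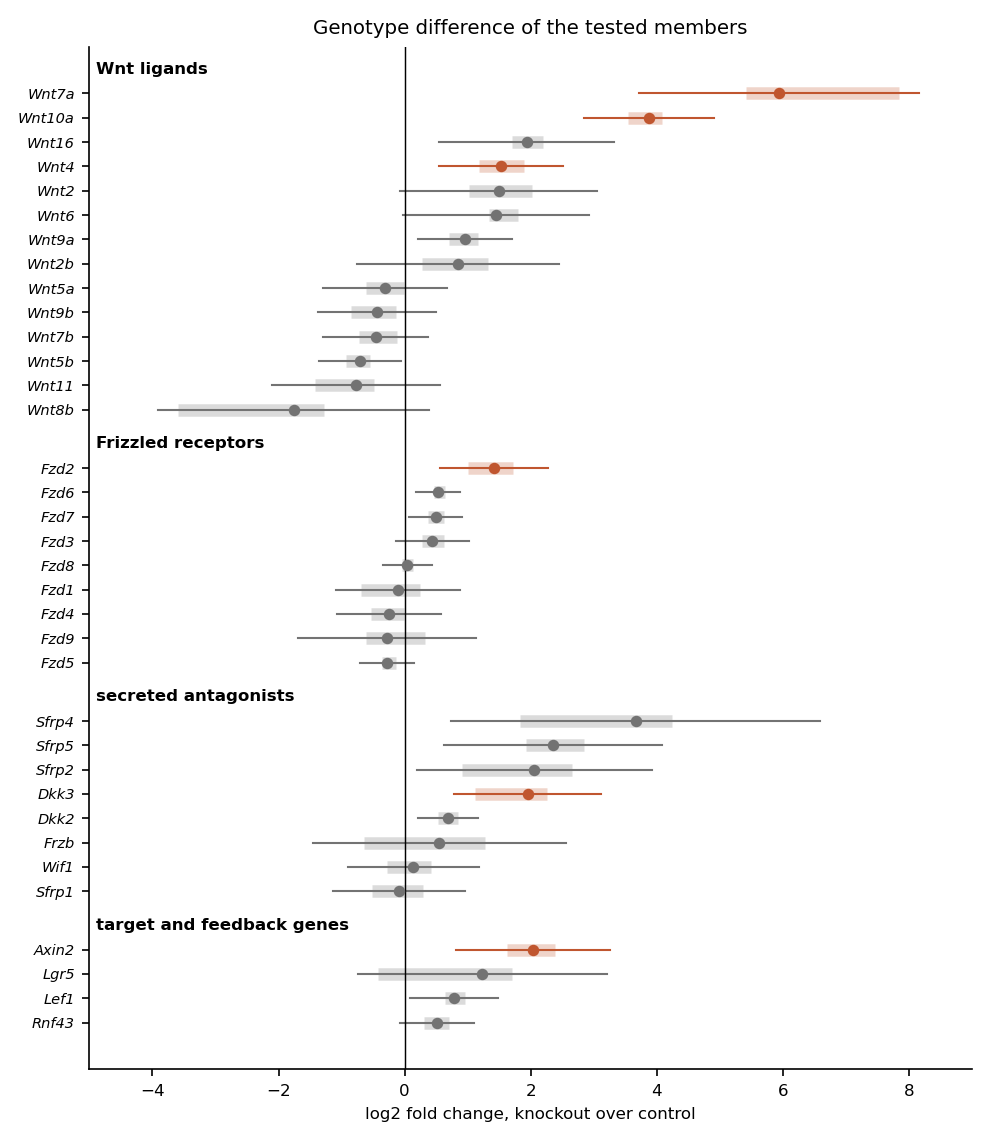
Each row is a tested member, with its log2 fold change (knockout over control) as a point, the 95% interval as a line and the range of the fits that each left out 1 library as a band. The 6 members in orange had an adjusted p under 0.05 and lie to the right of 0, and the 29 in grey were not called.

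Wnt10a is a canonical ligand best known from skin, teeth and hair follicles. It was at 0.895, 0.822 and 0.420 CPM in controls 1 to 3 and at 15, 7.52 and 9.34 CPM in knockouts 1 to 3. The lowest knockout was thus far above the highest control. Its log2 fold change was 3.88 (SE 0.44; edgeR, adjusted p 0.0270), a 14.7-fold difference in level from 0.712 ± 0.256 to 10.6 ± 3.88 CPM (SD, n = 3 each). Unlike the other called members Wnt10a was highest in knockout 1. The log2 fold change lay between 3.55 and 4.08 whichever library was left out. The adjusted p was 0.0788, 0.118 and 0.0913 without controls 1, 2 and 3 and 0.0604 without knockout 3. Wnt10a lies on chromosome 1 (74838090 to 74850753, plus strand, mm9) beside Wnt6 (74818466 to 74831893), and no annotated gene overlaps it on the other strand.

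Wnt6, its neighbour and also an epithelial ligand, was at 0.497, 0.411 and 0.540 CPM in controls and at 0.883, 2.51 and 0.536 CPM in knockouts. Knockout 3 was within the control range, and the log2 fold change of 1.45 (SE 0.62) did not pass (edgeR, adjusted p 0.135).

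Wnt7a, a ligand known from limb patterning and the female reproductive tract, went from near absence to a low level. The 3 controls held 0, 0 and 1 reads of it, and the knockouts 17, 51 and 17. That is 1 count over all controls against 85 over all knockouts, a depth-scaled ratio of 85.7 with an exact 95% interval of 15 to 3425, which covers counting error only. A level of 0 in controls 1 and 2 allows up to 0.149 and 0.176 CPM, the value of 3 counts. The fitted log2 fold change was 5.94 (SE 0.94; edgeR, adjusted p 0.0277), and with so few control counts it is no bound. It was 5.41, 5.51 and 7.84 without controls 1, 2 and 3, with adjusted p of 0.0788, 0.118 and 0.0913, so the call was lost each time. In those fits 0 genes overall were called. Wnt7a reached 10 counts only in knockouts, so it could pass the count filter only by being higher there. Without any 1 knockout the gene no longer had 10 counts in 3 libraries and was not tested. Wnt7a spans 91313975 to 91361357 on chromosome 6 (minus strand, mm9).

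Wnt4, the inducer of nephron epithelium, was at 6.76, 10.2 and 15.8 CPM in controls and at 18.7, 45.6 and 30.5 CPM in knockouts. The groups did not overlap, but control 3 and knockout 1 lay close together. Its mean rose from 10.9 ± 4.55 to 31.6 ± 13.5 CPM (SD, n = 3 each). On the log2 scale this is 1.54 (SE 0.42, edgeR's adjusted p 0.0480). The value was 1.27, 1.48 and 1.90 without controls 1, 2 and 3 (adjusted p 0.116, 0.150 and 0.0936) and 1.18 and 1.57 without knockouts 2 and 3 (adjusted p 0.127 and 0.107), and in all 5 fits Wnt4 was not called. Without knockout 1 it was 1.81 and called (adjusted p 0.0141). Wnt4 lies on chromosome 4 (136833404 to 136855641, plus strand, mm9).

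Wnt16, a ligand known from bone, had 5, 6 and 8 counts in controls and 21, 15 and 32 in knockouts. In CPM it was at 0.248, 0.352 and 0.480 against 1.03, 0.752 and 2.45, so the groups did not overlap. The difference was 3.82-fold, with a log2 fold change of 1.93 (SE 0.58), and did not pass (edgeR, adjusted p 0.0611). DESeq2's Wald test called it (adjusted p 0.0320).

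**Figure D2:**
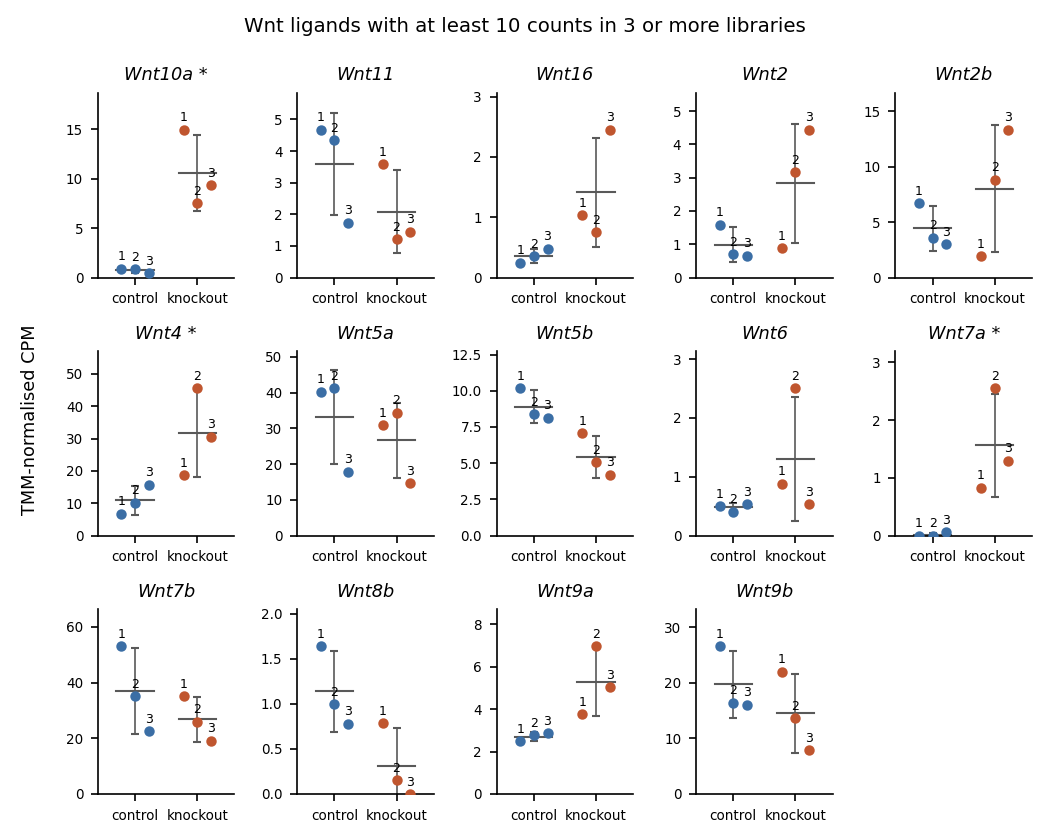
TMM-normalised CPM of the 14 tested Wnt ligands in each library, with controls in blue, knockouts in orange, replicate numbers beside the points and mean ± SD in grey (bars cut at 0). Panels start at 0 and have their own scale, and the starred Wnt10a, Wnt4 and Wnt7a had an adjusted p under 0.05. In Wnt5b all 3 knockouts lie below the controls.

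Wnt7b, Wnt9b and Wnt11, ligands of the collecting duct and ureteric bud, were not called. Wnt7b, the collecting duct ligand, was at 53.1, 35.1 and 22.5 CPM in controls and at 35.2, 26.0 and 19.1 CPM in knockouts. The ranges overlapped, and the log2 fold change was -0.46 (SE 0.35; edgeR, adjusted p 0.362). Wnt9b, the bud ligand, had 26.6, 16.4 and 16.1 CPM in controls and 22, 13.6 and 7.89 CPM in knockouts (log2 fold change -0.44, SE 0.39; edgeR, adjusted p 0.441). Wnt11, the tip ligand, had 4.67, 4.35 and 1.74 CPM in controls and 3.58, 1.2 and 1.45 CPM in knockouts (log2 fold change -0.78, SE 0.56; edgeR, adjusted p 0.341), and without knockout 1 its value was -1.43 (adjusted p 0.0809). In all 3 genes knockout 1 lay among the controls and the lowest value was in knockout 2 or 3. Their 95% intervals ran from -1.29 to 0.37, from -1.37 to 0.49 and from -2.11 to 0.56, so a drop of more than 2-fold was not excluded by the fit for any of them.

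Wnt5a and Wnt5b are the main ligands of the branch without beta-catenin. Wnt5b was at 10.2, 8.40 and 8.15 CPM in controls and at 7.06, 5.07 and 4.21 CPM in knockouts, with no overlap. Its log2 fold change was -0.71 (SE 0.27; edgeR, adjusted p 0.107), and -0.93 without knockout 1, when it was called (adjusted p 0.0389). Wnt5a ranged from 17.9 to 41.3 CPM in controls and from 14.6 to 34.4 CPM in knockouts, which overlap, with a log2 fold change of -0.31 (SE 0.41, edgeR's adjusted p 0.605). On the opposite strand Wnt5b overlaps Fbxl14, Wnt5a overlaps Gm2670, Wnt7b overlaps AU022754 and Wnt11 overlaps Gm8398. The strand setting of the counting was not stated, so the values of these 4 genes are uncertain.

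Among the remaining ligands, Wnt9a had 2.48, 2.76 and 2.88 CPM in controls and 3.78, 6.97 and 5.05 CPM in knockouts, with no overlap (log2 fold change 0.96, SE 0.32; edgeR, adjusted p 0.0728). It was called without knockout 1 (1.16, adjusted p 0.0275), by DESeq2's Wald test (adjusted p 0.0304) and with library size alone. Wnt2 (1.49, SE 0.66) and Wnt2b (0.85, SE 0.67), ligands of mesenchyme, were highest in knockout 3 at 4.44 and 13.3 CPM. In knockout 1 they were at 0.883 and 1.91 CPM, inside the control range for Wnt2 and below it for Wnt2b, and neither was called (edgeR, adjusted p 0.144 and 0.387). Wnt2 was called without knockout 1 (log2 fold change 1.93, adjusted p 0.0264). Wnt8b had 33, 17 and 13 counts in controls and 16, 3 and 0 in knockouts (log2 fold change -1.76, SE 0.91; edgeR, adjusted p 0.196). The 0 counts of knockout 3 allow up to 0.230 CPM. Like Wnt2, it was called in 1 alternative fit, the 1 without knockout 1, at -3.59 (adjusted p 0.0231).

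The composition of the ligand pool was read per length, as CPM per kb of the longest annotated transcript, and as a share of the sum over the 19 ligands in each library. Wnt7b held the largest share in every control, between 27.6% and 39.2%, and between 16.8% and 27.0% in knockouts. Wnt10a went from between 0.728% and 1.11% in controls to between 7.47% and 16.2% in knockouts. Wnt4 held 4.16% to 16.1% in controls and 11.9% to 26.6% in knockouts, which overlap, and in knockouts 2 and 3 it passed Wnt7b. Wnt5b held 11.2% to 14.9% in controls and 5.31% to 8.09% in knockouts. Knockout 1 was the knockout nearest to the controls for Wnt7b, Wnt4 and Wnt5b and the farthest for Wnt10a. Summed over the ligands, the level in CPM was 124.3 ± 32.2 in controls and 140.2 ± 21.3 in knockouts (SD, n = 3 each). The shares are descriptions and were not tested, since they follow from the levels of the same genes.

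**Figure D3:**
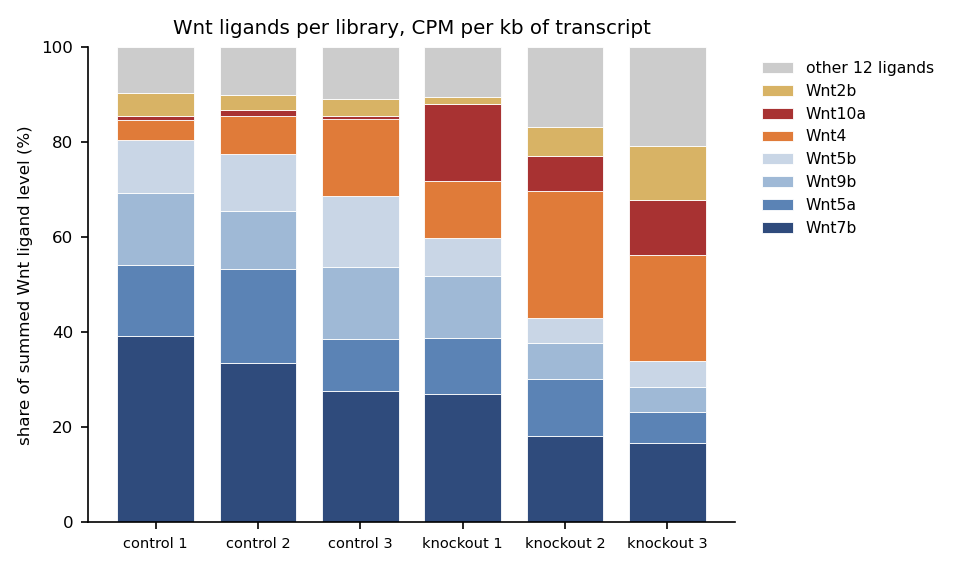
Share of each Wnt ligand in the summed ligand level of a library (CPM per kb of transcript, in %), 1 bar per library. Blue tones mark Wnt7b, Wnt5a, Wnt9b and Wnt5b, which together take less of the bar in knockouts 2 and 3 than in any other library, and orange and red mark Wnt4 and Wnt10a, with Wnt10a at 16.2% in knockout 1.

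Among the receptors, Fzd2 was the single call of 9 tested (11.1%, against 17.0% of all genes). Fzd2, a receptor for both branches of the pathway, was at 7.31, 6.52 and 6.78 CPM in controls and at 10.1, 27.5 and 17.4 CPM in knockouts. The controls were tight and all 3 knockouts lay above them. The mean rose from 6.87 ± 0.401 to 18.3 ± 8.73 CPM (SD, n = 3 each). On the log2 scale this is 1.41 (SE 0.36, edgeR's adjusted p 0.0436). It was 1.45, 1.37 and 1.41 without controls 1, 2 and 3 (adjusted p 0.104, 0.138 and 0.119) and 1.01 and 1.46 without knockouts 2 and 3 (adjusted p 0.104 and 0.0983), where it was not called. Without knockout 1 it was 1.72 (adjusted p 0.00518). Fzd2 is a gene of a single exon on chromosome 11 (102465745 to 102469372, plus strand, mm9).

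Fzd6 and Fzd7 showed smaller differences in the same direction. Fzd6, a planar polarity receptor, was at 39.3, 37.9 and 33.9 CPM in controls and at 45.0, 58.7 and 56.7 CPM in knockouts. Its log2 fold change of 0.53 (SE 0.15) missed the threshold (edgeR, adjusted p 0.0530) and passed without knockout 1 (0.65, adjusted p 0.0142). It also passed with DESeq2's Wald test (adjusted p 0.0249), upper quartile scaling and library size alone. Fzd7 was at 34.7, 30.9 and 41.7 CPM in controls and at 43, 49.1 and 59.2 CPM in knockouts (log2 fold change 0.49, SE 0.18; edgeR, adjusted p 0.0895), and it also passed without knockout 1 (0.61, adjusted p 0.0442) and with library size alone. In both genes the groups did not overlap, although control 3 and knockout 1 of Fzd7 nearly touched. Fzd3 had a log2 fold change of 0.44 (SE 0.24, edgeR's adjusted p 0.227) and overlapped.

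Fzd4 and Fzd1 were the receptors with the highest level per length in controls, at 29.3 and 19.8 CPM per kb. Fzd4, which is also the receptor of the vascular factor Norrin, was at 141.5, 122.1 and 60.1 CPM in controls and at 118.5, 87.6 and 67.4 CPM in knockouts, so that control 3 was the lowest library of all. Fzd1 was tight in controls, at 85.4, 91.7 and 82.5 CPM, and scattered in knockouts, at 68.2, 135.6 and 37.8 CPM. Their log2 fold changes were -0.24 (SE 0.35) and -0.10 (SE 0.42), neither passed (edgeR, adjusted p 0.635 and 0.874), and both signs turned with library size alone. Fzd8 had 15.6 to 17.5 CPM in controls and 15.3 to 19.2 CPM in knockouts. Its log2 fold change of 0.04 had a 95% interval of -0.35 to 0.43. Fzd5 (-0.28, SE 0.18) and Fzd9 (-0.27, SE 0.60) did not pass either (edgeR, adjusted p 0.285 and 0.761).

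Among the antagonists, Dkk3 was called. Dkk3 is the divergent Dickkopf, which does not share the coreceptor binding of its relatives. It was at 31.0, 34.9 and 30.9 CPM in controls and at 71.8, 234.7 and 67.9 CPM in knockouts. The 3 controls were nearly equal, knockouts 1 and 3 lay at about the same level above them, and knockout 2 stood apart. The log2 fold change was 1.95 (SE 0.49; edgeR, adjusted p 0.0426), from 32.3 ± 2.29 to 124.8 ± 95.2 CPM (SD, n = 3 each). Without knockout 2 it was 1.12 and still called (adjusted p 0.0455). Without controls 1, 2 and 3 it was 1.91, 2.00 and 1.92 (adjusted p 0.107, 0.130 and 0.120) and without knockout 3 it was 2.25 (adjusted p 0.0666), and in these 4 fits it was not called. Without knockout 1 it was 2.24 (adjusted p 0.0152). Dkk3 lies on chromosome 7 (119259533 to 119302571, minus strand, mm9).

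Dkk2, which binds the coreceptors, was at 28.6, 32.9 and 37.4 CPM in controls and at 40.8, 54.4 and 64.0 CPM in knockouts. All knockouts lay above all controls, and the log2 fold change of 0.69 (SE 0.20) did not pass (edgeR, adjusted p 0.0563). It passed without knockout 1 (0.85, adjusted p 0.0123) and with DESeq2's Wald test (adjusted p 0.0273).

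Sfrp2, Sfrp4 and Sfrp5, which bind Wnts in the matrix around cells, split the knockouts. Sfrp4 was at 1.69, 1.12 and 1.5 CPM in controls and at 0.785, 9.38 and 45.2 CPM in knockouts, so knockout 1 lay below the controls and knockouts 2 and 3 above them. Sfrp5 was at 2.78, 1.17 and 1.8 CPM in controls and at 2.06, 14.8 and 12.7 CPM in knockouts. Sfrp2 was at 4.57, 3.00 and 9.59 CPM in controls and at 6.62, 14.7 and 50.3 CPM in knockouts. In Sfrp2 and Sfrp5 knockout 1 was inside the control range. The log2 fold changes were 3.67 (SE 1.24), 2.35 (SE 0.73) and 2.06 (SE 0.79), and edgeR called none of the 3 (adjusted p 0.0772, 0.0652 and 0.104). Without knockout 1 all 3 were called, at 4.24, 2.84 and 2.51 (adjusted p 0.00634, 0.00440 and 0.0288), and DESeq2's Wald test called them with all libraries. Without knockout 3 the values were 1.83 for Sfrp4 and 0.91 for Sfrp2 (adjusted p 0.239 and 0.343). The summed level of 4 adipose markers was also split, at 107.0 to 189.5 CPM in controls and at 41.4, 287.8 and 529.4 CPM in knockouts 1 to 3. Of these markers Adipoq and Cfd lay above all controls in knockouts 2 and 3, whereas Plin1 and Lep did not, and 0 of 4 were called (edgeR). Of 9 fibroblast markers, Dcn, Lum and Postn lay above all controls in knockouts 2 and 3 but not in knockout 1. Pdgfra did so in knockout 2 only, and Pdgfrb, Col1a1, Col1a2, Col3a1 and Acta2 in every knockout. The part of adipose and fibroblast markers in the Sfrp values was not tested. Sfrp2 overlaps the antisense gene Gm16790.

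Sfrp1 was the member with the highest level per length, at 49.4 CPM per kb in controls and 46.4 in knockouts. It was at 210.6, 188.3 and 249 CPM in controls and at 219.3, 309.0 and 80.8 CPM in knockouts, with 1 knockout on either side of the control range. Frzb varied within both groups, from 11.6 to 58.7 CPM in controls and from 10.9 to 101.4 CPM in knockouts. Neither passed (log2 fold changes -0.09, SE 0.44, and 0.55, SE 0.85; edgeR, adjusted p 0.899 and 0.662), and the sign of Sfrp1 turned with library size alone. Wif1 had 1.17 to 2.34 CPM in controls and 1.30 to 2.80 CPM in knockouts (log2 fold change 0.13, SE 0.44; edgeR, adjusted p 0.843). Of the 8 antagonists tested, 1 was called (12.5%, against 17.0% of all genes) and 7 had a log2 fold change above 0 (87.5%, against 51.5%), with a median of 1.32 against 0.02.

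**Figure D4:**
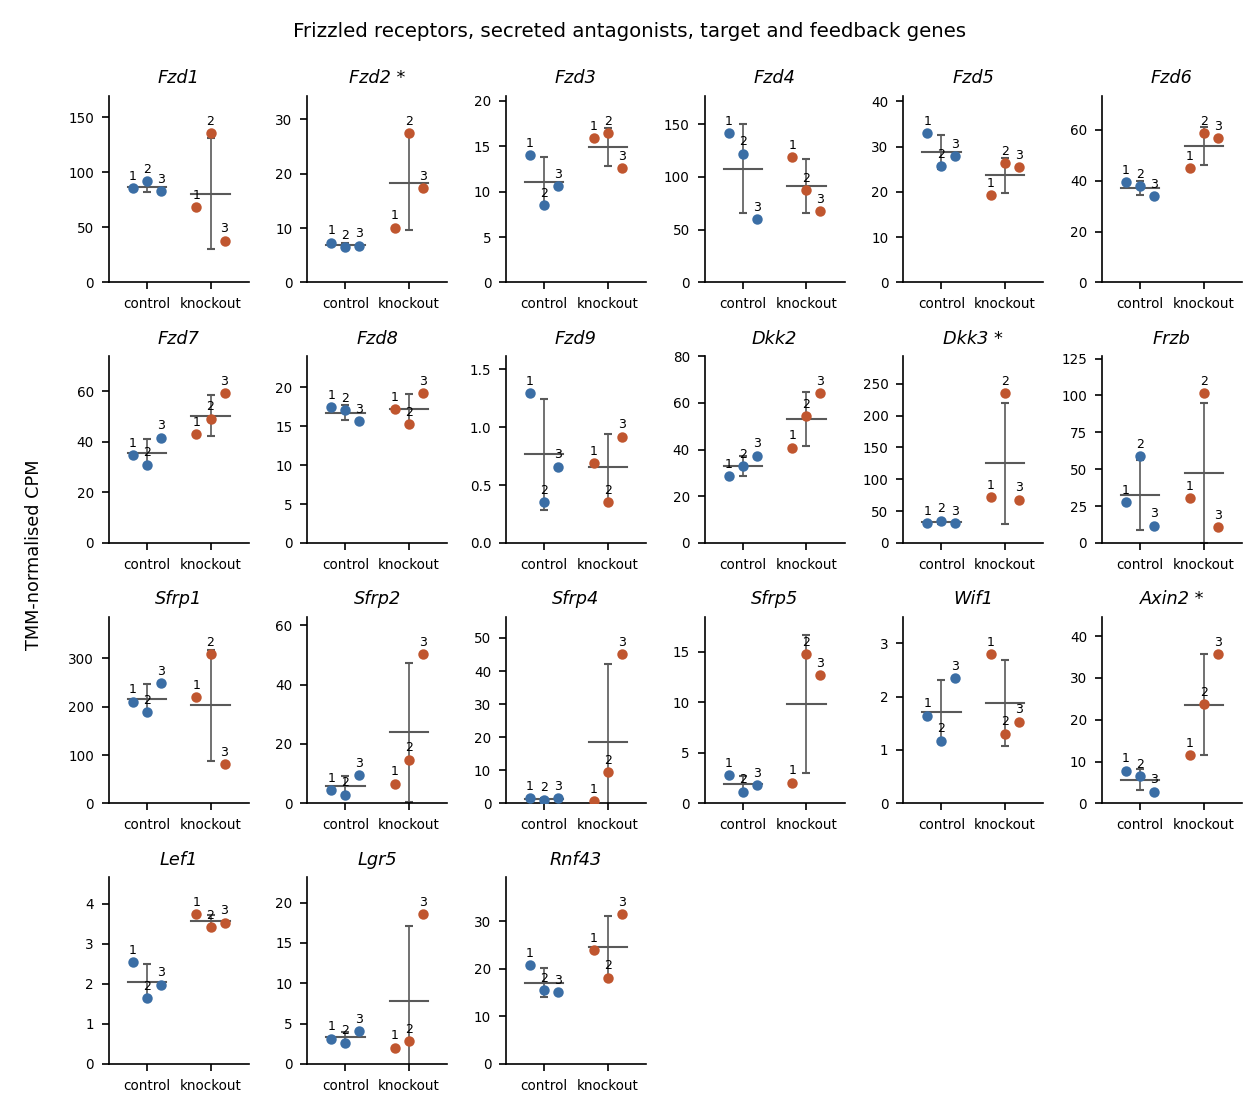
TMM-normalised CPM of the 21 tested receptors, antagonists and target and feedback genes per library, drawn as for the ligands (controls blue, knockouts orange, mean ± SD grey, bars cut at 0). The starred Fzd2, Dkk3 and Axin2 had an adjusted p under 0.05, and knockout 1 lies below the controls in Sfrp4 and among them in Sfrp5, while knockouts 2 and 3 lie above them in both.

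Axin2 is a scaffold of the destruction complex whose transcription is turned on by beta-catenin, so that it limits the pathway and serves as its readout. It was at 7.80, 6.52 and 2.82 CPM in controls and at 11.5, 23.7 and 35.8 CPM in knockouts. The knockouts lay above all controls, knockout 1 by the smallest margin. The mean went from 5.71 ± 2.59 to 23.6 ± 12.1 CPM (SD, n = 3 each). On the log2 scale this is 2.04 (SE 0.52, edgeR's adjusted p 0.0425). It was 2.33, 2.15 and 1.72 without controls 1, 2 and 3 (adjusted p 0.0857, 0.127 and 0.107) and 2.05 and 1.63 without knockouts 2 and 3 (adjusted p 0.105 and 0.109), so the call was lost in these 5 fits. Without knockout 1 it was 2.38 (adjusted p 0.00966). Axin2 spans 108781663 to 108812097 on chromosome 11 (plus strand, mm9) and overlaps Gm11670 on the opposite strand, and reads of the pair cannot be told apart without a strand setting.

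The other 3 feedback genes did not pass. Lef1, a nuclear partner of beta-catenin and itself a target, was at 2.53, 1.64 and 1.98 CPM in controls and at 3.73, 3.41 and 3.52 CPM in knockouts. The groups did not overlap and the knockouts were tight, with a log2 fold change of 0.79 (SE 0.30, edgeR's adjusted p 0.0993). Rnf43, a ubiquitin ligase that removes Frizzleds from the cell surface, was at 20.7, 15.6 and 15.1 CPM in controls and at 23.9, 18.2 and 31.5 CPM in knockouts (log2 fold change 0.51, SE 0.25; edgeR, adjusted p 0.168). Lgr5, a receptor for R-spondins and a stem cell marker of other epithelia, was at 3.13, 2.64 and 4.08 CPM in controls and at 2.01, 2.86 and 18.5 CPM in knockouts. Its log2 fold change of 1.23 (SE 0.83, edgeR's adjusted p 0.309) came from knockout 3 and was -0.42 without that library. Rnf43 overlaps 1110028F11Rik on its own strand and U6 on the opposite strand, and Lgr5 overlaps RP23-43M12.1 on the opposite strand. The values of Rnf43 and Lgr5 are therefore uncertain.

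The 8 other members were not tested. Wnt3 and Wnt8a had 0 counts in all 6 libraries, which allows up to 0.147 to 0.230 CPM per library. Wnt1, Wnt3a, Dkk1 and Dkk4 had at most 4 counts in any library. Wnt10b had 5, 0 and 9 counts in controls and 6, 30 and 42 in knockouts, so it reached 10 counts in knockouts 2 and 3 only. Fzd10 had 7, 2 and 3 counts in controls and 34, 21 and 3 in knockouts, and reached it in knockouts 1 and 2 only.

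The pathway genes outside the members were read from 8 lists of 73 genes, of which 66 were tested. Of these 10 were called higher and 5 lower, where 10.5% and 6.56% of all genes were, and their median log2 fold change was 0.26. All 3 knockouts lay above the control range for 18 of the 66 genes and below it for 7, against 23.7% and 22.2% of all genes. Without any 1 control or without knockout 3, edgeR called 0 of these genes and 0 genes overall. Without knockout 2 it called 0 of these genes and 0.470% of all genes. In these fits 21 to 24 had an unadjusted p under 0.05, and the share of all genes at that p was not taken for them. With all libraries 25 of the 66 did, against 38.5% of all genes.

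The genes often given as targets of beta-catenin held 6 of the 15 calls, 5 higher and 1 lower of 11 tested, where 10.5% and 6.56% of all genes were called. Myc, the growth regulator, averaged 5.72 ± 1.18 CPM in controls and 19.3 ± 3.16 in knockouts (SD, n = 3 each; log2 fold change 1.75, SE 0.24; edgeR, adjusted p 0.0270). Cd44, a receptor for hyaluronan, rose by 4.40 on the log2 scale (SE 0.56) and fibronectin Fn1 by 3.04 (SE 0.65; edgeR, adjusted p 0.0270 and 0.0327). The matrix protease Mmp7 had 0, 3 and 0 counts in controls and 51, 178 and 87 in knockouts, and so passed the count filter only through knockouts. Sp5, a transcription factor and direct target, fell by 1.51 on the log2 scale (SE 0.38; edgeR, adjusted p 0.0420), from 12.8 ± 3.19 to 4.48 ± 2.07 CPM (SD, n = 3 each). Axin2 and Sp5 thus lay on opposite sides of 0. Ccnd1, the cyclin D1 gene, did not pass (log2 fold change -0.30, SE 0.33; edgeR, adjusted p 0.528).

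At the cell surface, the coreceptor-like Ptk7 rose by 1.47 on the log2 scale (SE 0.25; edgeR, adjusted p 0.0283), whereas Lrp5 (0.22, SE 0.22) and Lrp6 (-0.53, SE 0.27) did not pass (edgeR, adjusted p 0.481 and 0.194). Of the genes of the R-spondin axis, the receptor Lgr4 fell by 0.85 (SE 0.20; edgeR, adjusted p 0.0380), from 293.7 ± 7.36 to 162.8 ± 38.1 CPM (SD, n = 3 each). The ligand Rspo1 had 35, 15 and 22 counts in controls and 20, 143 and 162 in knockouts (log2 fold change 2.36, SE 0.83; edgeR, adjusted p 0.0857), a split between knockout 1 and the other 2 knockouts like that of Sfrp4 and Sfrp5. Notum, an esterase that inactivates Wnts by removing their lipid, fell by 1.69 (SE 0.30; edgeR, adjusted p 0.0292), from 22.3 ± 4.98 to 6.91 ± 2.13 CPM (SD, n = 3 each). The glypican Gpc3 rose by 1.56 (SE 0.38) and the glypican Gpc4 fell by 1.13 (SE 0.30; edgeR, adjusted p 0.0393 and 0.0456), and Igfbp4 fell by 0.99 (SE 0.26; edgeR, adjusted p 0.0452).

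Inside the cell, 0 of the 12 cytoplasmic genes passed (edgeR), beta-catenin itself included (Ctnnb1, log2 fold change 0.13, SE 0.20, adjusted p 0.668). The inhibitor Nkd2 had 33, 25 and 23 counts in controls and 120, 473 and 35 in knockouts and missed the threshold (log2 fold change 2.85, SE 0.79; edgeR, adjusted p 0.0509). Of the 11 nuclear genes only Tcf7, a partner of beta-catenin, was called, with 41, 42 and 41 counts in controls and 117, 374 and 152 in knockouts (log2 fold change 2.37, SE 0.45; edgeR, adjusted p 0.0303). Tcf7 is also a gene of T cells, and the sum of 7 lymphocyte markers was 5.28 to 8.63 CPM in controls and 17.4, 57.3 and 16.2 CPM in knockouts, with Cd3e, Cd3g and Cd4 called higher (edgeR). Their part in the Tcf7 values was not tested. Vangl2 and Prickle2, core genes of planar polarity, rose by 1.51 (SE 0.32) and 1.19 (SE 0.31) on the log2 scale (edgeR, adjusted p 0.0327 and 0.0447), and the other 8 tested genes of that list did not pass.

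**Figure D5:**
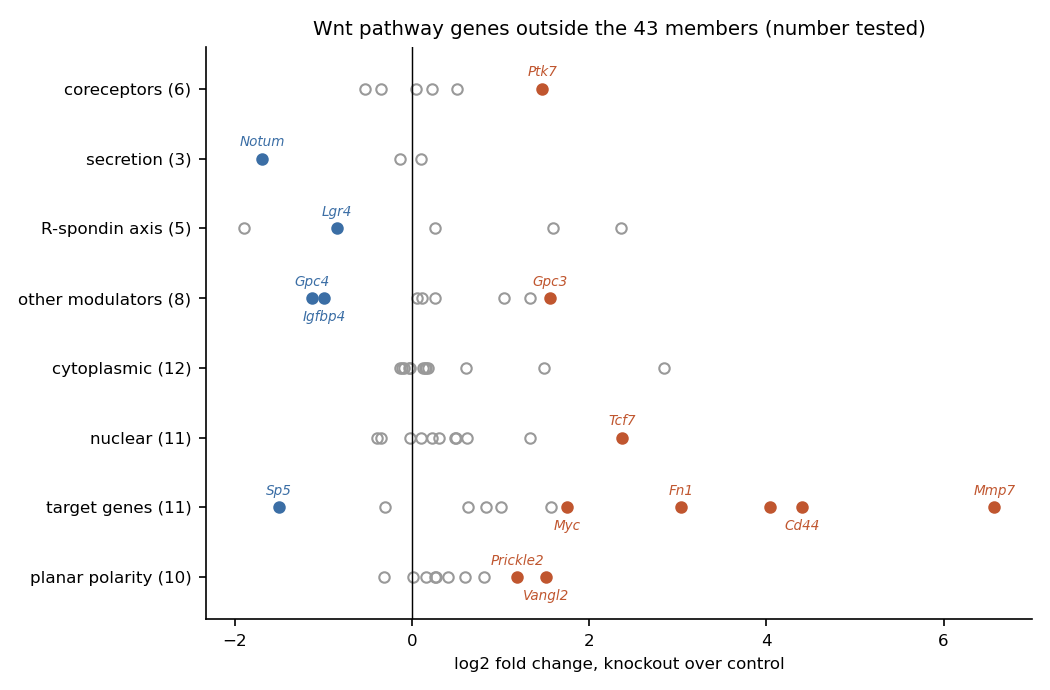
Log2 fold change (knockout over control) of the 66 tested pathway genes outside the members, 1 row per list with the number tested in brackets. Filled points, all but 1 of them named, had an adjusted p under 0.05 (orange higher, blue lower), 10 to the right of 0 and 5 to the left, and open grey points did not.

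Transcripts of other cell types moved with the groups and with single libraries. The summed level of 9 fibroblast markers was 368.6 to 696.3 CPM in controls and 1063 to 4139 CPM in knockouts, with 4 of 9 called higher. For 7 macrophage markers it was 323.3 to 363.9 CPM against 1253 to 3051 CPM, with 6 of 7 called higher. The sum of 6 proximal tubule markers went the other way, from 8416 to 11713 CPM in controls and from 1347 to 3946 CPM in knockouts, with all 6 called lower. The part of these cell types in the Wnt results was not tested.

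Knockout 2, which was the highest knockout for 14 of the 35 members, Wnt4, Wnt7a, Fzd2 and Dkk3 among them, also held 813.7 CPM of 5 urothelial markers, against 23.2 to 62.1 CPM in controls, 62.8 in knockout 1 and 6.89 in knockout 3. Without knockout 2 the log2 fold changes of Wnt4, Fzd2 and Dkk3 were 1.18, 1.01 and 1.12, as given above. Knockout 3 was the highest for 12 members, including Axin2, Lgr5, Sfrp2 and Sfrp4, and the lowest knockout for 12 others. It held 906.8 CPM of 4 smooth muscle markers, against 67.5 to 97.5 CPM in controls and 107.8 and 212.4 in knockouts 1 and 2. Of that sum 781.4 CPM were Myh11, and Actg2 at 2.45 CPM lay inside its control range of 1.32 to 4.05 CPM. Knockout 1, the lowest knockout for 15 members, had summed thick ascending limb and principal cell markers at 6053 and 1684 CPM, inside and above the respective control ranges of 3789 to 9421 and 1033 to 1433 CPM. Of the principal cell sum 872.7 CPM were Aqp2, whereas Avpr2 and Hsd11b2 lay inside their control ranges and Fxyd4 below. In knockouts 2 and 3 the summed thick ascending limb markers were at 827.1 and 1135 CPM, below all controls (Umod, Slc12a1 and Kcnj1 were, whereas Cldn16 was at 34.5 CPM in knockout 3 against 11.2 to 15.7 CPM in controls). The principal cell sums of 944.4 and 448.6 CPM were also below all controls, although Aqp2 and Scnn1g lay inside their control ranges in knockout 2. Fibroblast markers were 1063 CPM in knockout 1, against 4139 and 4136 in knockouts 2 and 3. Over the 35 members, knockouts 1, 2 and 3 were the highest knockout for 9, 14 and 12 and the lowest for 15, 8 and 12. The matching counts over all genes were not taken. The part of these marker differences in the Wnt values was not tested.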

How the data were processed

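Counts per gene were measured by RNA-seq in 6 kidneys. Per the labels and the study's methods, the authors enriched poly-A RNA, prepared TruSeq libraries, called bases with CASAVA 1.8.2, trimmed with Trimmomatic, aligned to mm9 with TopHat2 2.0.11 and counted with HTSeq. The deposited values are raw counts without normalization. The annotation and strand setting of the counting are not given in the sources used here, so overlapping genes are uncertain.

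Groups and replicate numbers came from sample titles. Genes with at least 10 counts in 3 libraries were tested with edgeR 4.0.16 (TMM, quasi-likelihood, legacy version, no covariate) in R 4.3.3, with Benjamini-Hochberg adjustment over 15208 genes and a threshold of 0.05. The standard error was the log2 fold change over the square root of F. Alternatives were DESeq2 1.42.0, limma-voom 3.58.1, other scalings and filters, the newer edgeR version, a replicate block and leaving out each library. The code was tested on simulated data. Deviations of same-numbered libraries correlated at -0.14, 0.02 and 0.22, and those of differently numbered ones between -0.27 and 0.22. With 3 libraries per group this cannot show whether the numbers pair kidneys. Replicates differed beyond sampling noise.

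The members and lists were chosen with earlier results of these data known. Called members, and those at least 2-fold apart with no overlap, are given in full, and called pathway genes are named with at most 3 others per list. Of these, 1 called target gene is counted but not reported here by name. Adgre1 stands for the older name Emr1 in the macrophage list. Lists of lymphocyte, endothelial, distal tubule, intercalated, podocyte, adrenal and adipose markers were read too: 3 of 7, 0 of 5, 0 of 3, 0 of 4, 1 of 5, 0 of 1 and 0 of 4 tested were called higher, and 1 distal tubule gene was called lower. Gene positions are from GENCODE M1 (NCBIM37, the mm9 assembly), where 20608 of 24422 names matched 1 gene, and promoters from RefSeq on GRCm38.p6. Protein sequences were not used here.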

Additional observations from a re-analysis of the deposited data

How the results depend on the processing

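Of 545 values of single members under the alternatives, 469 kept their direction and side of the threshold, 36 lost the call, 25 gained it and 15 changed sign, all without a call. Sign changes with library size alone were Fzd1 (0.17), Fzd4 (0.015) and Sfrp1 (0.17). Leaving out 1 library gave ranges across 0 for Fzd1 (-0.70 without knockout 2 to 0.24 without knockout 3, 0.01 without knockout 1), Fzd8 (-0.037 without knockout 3 to 0.13 without knockout 2, -0.00064 without control 3), Fzd9 (-0.61 without control 2 to 0.33 without control 1, 0.04 without knockout 2), Frzb (-0.64 without knockout 2 to 1.28 without control 2), Sfrp1 (-0.52 without knockout 2 to 0.30 without knockout 3, 0.03 without control 3), Wif1 (-0.27 without knockout 1 to 0.42 without control 3, -0.08 without control 2) and Lgr5 (-0.42 without knockout 3 to 1.70 without knockout 1). Tfrc was at 0.14 with library size alone, and between -0.94 and 0.30 when 1 library was left out, with 0.18, 0.06 and 0.30 without control 2, knockout 2 and knockout 3.

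Members called higher numbered 6, and 12 with library size alone, 13 with DESeq2's Wald test, 2 with limma-voom and 0 to 13 on leaving out 1 library. Members called lower numbered 0, 1 with DESeq2's Wald test and 0 to 2 on leaving out 1 library. For the pathway genes outside the members these counts were 10 higher, 18 with library size alone, 17 with DESeq2's Wald test, 6 with limma-voom and 0 to 22 on leaving out 1 library. They were 5 lower, 3 with library size alone, 3 with a 2-fold change required and 0 to 6 on leaving out 1 library. With the replicate block, edgeR called 0 members, 0 pathway genes and 0 of all 15208 genes in either direction. It is not known whether the replicate numbers pair kidneys. In that fit 15 members and 28 pathway genes had an unadjusted p under 0.05. The share of all genes at that p was not taken for the block and was 38.5% without it. DESeq2 size factors, upper quartile scaling, the other filters and the newer edgeR version stayed within 1.5 times each count. The causes were not tested. Wnt6, Wnt7a, Wnt8b, Wnt10a, Wnt16 and Fzd9 had fewer than 10 counts in at least 1 library, so their levels there rest on few reads.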
